A study of Mus musculus with 2 samples.

Results

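Mitral and tufted cell genes are 10 genes that mark or serve the output neurons of the olfactory bulb, and they were taken as the non-control array probes carrying the gene names Tbx21, Eomes, Tbr1, Barhl2, Slc17a7, Slc17a6, Doc2g, Cdhr1, Reln and Ntng1. All 10 were on the array, with 21 probes among 56605 probes and 37068 gene names. Total RNA of the bulb came from 1 mouse under odor-enriched conditions and from 1 control mouse under standard odor conditions, and each was hybridized to 1 single-colour Agilent mouse array. The sources used here do not give the genotype, strain, age or length of the odor exposure. The labels call the tissue neurons of the bulb but give no sorting step. With 1 array per condition there is no spread between mice and no test, so each difference compares these arrays and not the conditions at large.

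Mitral and tufted cells are contacted by sensory axons from the nose in the glomeruli, release glutamate, and send the bulb's signal on to the olfactory cortex. They are held in check by the GABA-releasing granule and periglomerular cells around them. T-box transcription factors direct their formation and maintenance, and vesicular glutamate transporters load their synaptic vesicles. Of these genes, Tbx21 and Eomes are also made by lymphocytes, where they drive the effector programmes of T and NK cells.

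The processed signal is the spot's intensity after background subtraction. The level is the log2 processed signal minus the 75th percentile of all probes on the same array. The difference is the level in the odor-enriched array minus that in the control array, in log2 units, so that 1 unit is 2-fold. Each difference sets a probe against itself on the other array. Median levels and summed signals of a list join levels of different probes and serve as description only. The arrays held 59305 non-control spots each, of which 67.6% in the odor-enriched and 73.7% in the control array were well above background. The scanner software's own error put 0.20 to 0.38 log2 units on the difference of each of the 12 member probes used. These were well above background on both arrays and not outlier-flagged. Between repeat spots of a probe, over 300 probes, the difference varied with a pooled SD of 0.05. Between different probes of a gene it varied with a pooled SD of 0.63. In whole tissue, fewer cells of a type and less RNA per cell cannot be told apart.

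Doc2g, Slc17a7 and Cdhr1 were at least 2-fold lower in the odor-enriched bulb, and Tbx21 was 8.6-fold higher. The other measured members, Slc17a6, Eomes, Ntng1, Tbr1 and Reln, stayed within 2-fold. Of the 10 genes, 9 were well above background on both arrays, through 12 of the 21 probes, with 1 outlier-flagged Eomes probe left out. Among these 9, 3 were at least 2-fold lower, against 5.52% of the 23872 genes with a value on both arrays, and 1 was at least 2-fold higher, against 11.5% of them. At 1.5-fold, 4 members were lower (16.3% of all genes) and 1 was higher (21.2%). At 3-fold, 2 members were lower (1.38% of all genes) and 1 was higher (5.39%). The median difference of the 9 was -0.36, against 0.00 for all measured genes, and 7 of the 9 were below 0.

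**Figure D1:**
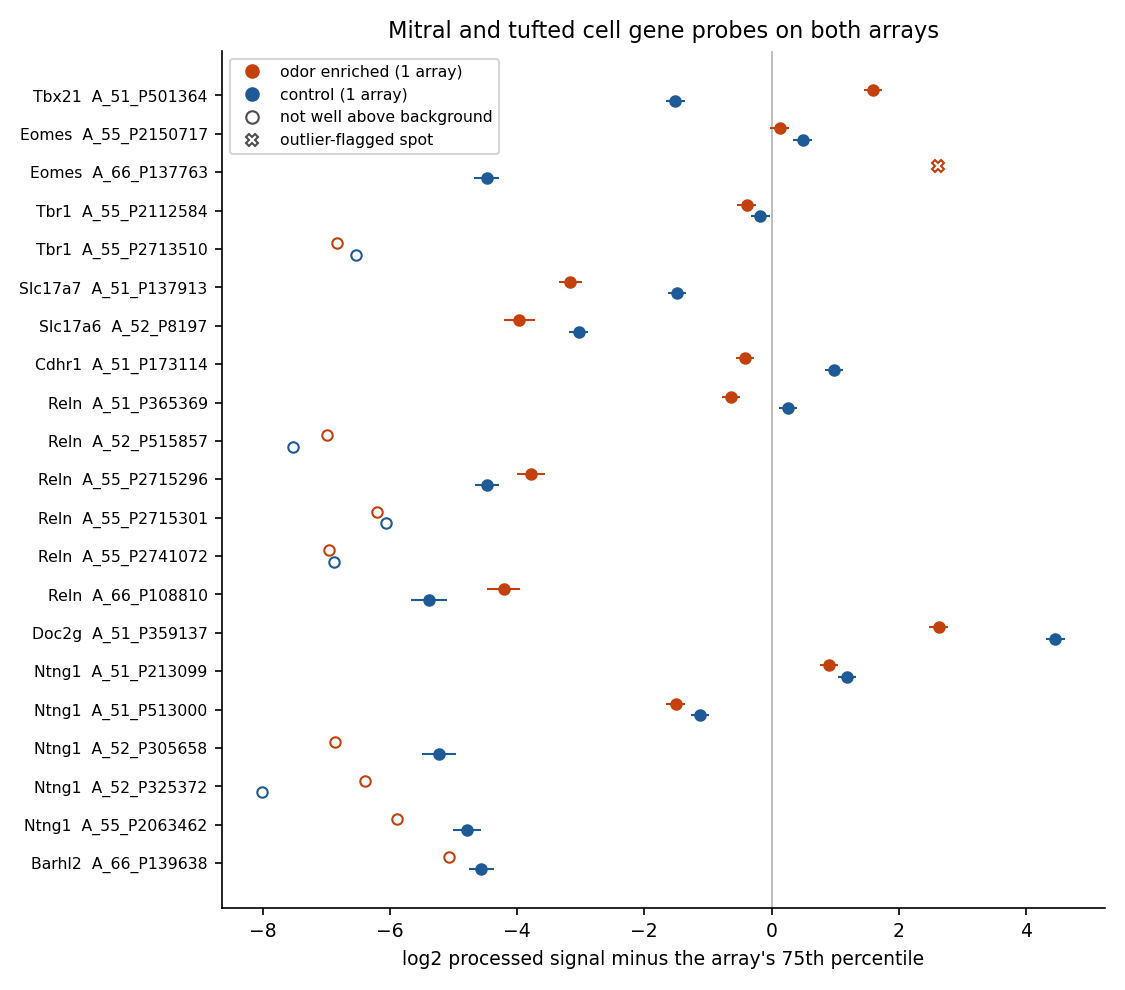
Levels of all 21 probes in log2 units relative to each array's 75th percentile, with bars for the scanner software's signal error; filled points are well above background and open circles are not. Tbx21 lies at 1.59 in the odor-enriched and -1.51 in the control array, Doc2g at 2.63 in the odor-enriched and 4.46 in the control array, and the outlier-flagged Eomes spot (cross) at 2.62 in the odor-enriched array against -4.48 in the control array.

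Among the transcription factors, Tbx21 (T-bet), a T-box factor of mitral and tufted cells and of type 1 lymphocytes, had a processed signal of 608 in the odor-enriched and 87.7 in the control array. Its levels were 1.59 in the odor-enriched and -1.51 in the control array, a difference of 3.11, higher than that of 99% of the measured genes. Its only probe lies at chr11:96959417-96959476 on mm9, on the minus strand, and the spots around it had a median difference of -0.09. Tbx21 kept at least 2-fold under all 12 processing settings run, from 1.35 with scaling on the E1A spike-in probes to 3.44 with the deposited series matrix values. For members with 1 probe, such as Tbx21, Doc2g, Slc17a7 and Cdhr1, not every setting could change the value. The settings that change the filter on dim probes or take the brightest probe left it as it was.

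Eomes (Tbr2), the T-box factor that specifies mitral and tufted cells and also acts in CD8 T and NK cells, did not follow Tbx21 on its usable probe. That probe, A_55_P2150717 at chr9:118394425-118394484 (mm9), had signals of 220 in the odor-enriched and 350.5 in the control array and a difference of -0.36. The other Eomes probe read in the opposite direction, with 1239 in the odor-enriched and 11.2 in the control array, a difference of 7.10. This spot carried the scanner software's outlier flag in the odor-enriched array and was left out. Its pixels varied by 43.8% of their mean in the odor-enriched array, against a median of 12.2% and a 99th percentile of 23.2% over 1870 spots of like brightness there. The 36 usable spots around it had a median difference of 2.33, whereas around the other 20 member probes that median lay between -0.30 and 0.47. The probe is shown because the direction of Eomes depends on it. It is 60 bases long and spans 662 bases of the genome at chr9:118390460-118391121 (mm9, plus strand), so it crosses a splice junction. Capitals mark 4 copies of AAC in a row, which 23 of 56605 probes on the array hold, and 0 other probes share 20 bases in a row with it:
Eomes A_66_P137763: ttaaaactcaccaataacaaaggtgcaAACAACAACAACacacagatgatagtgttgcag

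Tbr1, the T-box factor of mitral cells and of deep-layer cortical neurons, had signals of 154 in the odor-enriched and 221 in the control array on its brighter probe, a difference of -0.22. That lies close to the 0.20 log2 units of signal error on this probe, and it turned to 0.12 with the series matrix values. Its other probe was not well above background on either array. Barhl2, a homeodomain factor of the BarH family, was well above background in the control array only, with signals of 6.01 in the odor-enriched and 10.6 in the control array. Against the lowest level counted as well above background in the odor-enriched array, this gives a fold of at least 1.07 lower, which does not set the arrays apart. Over all genes, 2701 were well above background in the control array only and 449 in the odor-enriched array only. Of the 4 transcription factors, 3 were thus measured on both arrays. Past 2-fold were 1 on the higher side (11.5% of all genes) and 0 on the lower (5.52%).

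Other T-box genes, from a list that leaves out the members, were also counted. Of 14, 9 gave a value on both arrays. Of these, 5 exceeded 2-fold in the higher direction, against 11.5% of all genes, 0 did so in the lower direction, and the median was 1.2. Tbx22, a factor of palate formation, stood at 3.10 and Tbx1, a factor of pharyngeal arch development, at 2.15. The single Tbx22 probe was the brightest of the list, with levels of 8.22 in the odor-enriched and 5.12 in the control array. Whether it reads Tbx22 alone was not tested. Tbx3 had 2 probes at 1.67 and 1.90, and Tbx18, known from pericytes and vascular smooth muscle, stood at 1.2. At the other end were Tbx10 (-0.27) and Tbx6 (-0.15), and Tbx4 was well above background in the odor-enriched array only. With the E1A scaling the median of this list was -0.56. That scaling put the median of all genes at -1.75. It adds 1 constant per array, so the distance of the list to all genes could not change. Under it, 4 of the 9 were at least 2-fold lower, against 83.5% of all genes, and 1 was at least 2-fold higher, against 1.58%. The 8 E1A probes that this scaling rests on differed between the arrays by 1.22 to 4.38 log2 units before scaling.

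Both vesicular glutamate transporters read lower in the odor-enriched bulb, and 1 of the 2 passed 2-fold, against 5.52% of all genes. Slc17a7 (VGLUT1), which loads glutamate into the vesicles of mitral and tufted cells and of cortical neurons, had signals of 22.5 in the odor-enriched and 89.0 in the control array. The difference was -1.67 (3.18-fold lower; probe at chr7:52430841-52430900, mm9), and 1.16% of the measured genes lay at or below it. Slc17a6 (VGLUT2), the transporter of thalamic neurons and of olfactory sensory axons as well, had signals of 12.9 in the odor-enriched and 30.6 in the control array, a difference of -0.93, just inside 2-fold. Both probes were dim, and the normexp background correction, used with an offset of 50 added to every signal, brought the differences to -0.66 for Slc17a7 and -0.05 for Slc17a6. The related Slc17a8 (VGLUT3) stood at -0.10.

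Over 12 genes of glutamate transport and metabolism, a list that includes both transporters, the median was -0.31. Slc17a7 alone passed 2-fold in the lower direction (8.33%, against 5.52% of all genes), and 0 did so in the higher direction (against 11.5%). The neuronal uptake carrier Slc1a1 stood at 0.75. The lowest were Slc17a7 and Slc17a6.

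Doc2g, a double C2-domain protein related to the calcium sensors of vesicle release, was the lowest member. Its signals were 1244 in the odor-enriched and 5511 in the control array, its levels 2.63 in the odor-enriched and 4.46 in the control array. The difference was -1.84 (3.57-fold lower), with 0.783% of the measured genes at or below it. It stayed at least 2-fold lower under all 12 settings, and without the E1A scaling its difference ran from -2.01 to -1.50. The related Doc2a (-0.42), Doc2b (-0.18) and Rph3a (-0.50) were within 2-fold. The Doc2g probe is shown because it carries the lowest difference on a bright spot. It spans 172 bases at chr19:4006386-4006557 (mm9, plus strand) and so also crosses a splice junction, and 0 other probes share 20 bases in a row with it:
Doc2g A_51_P359137: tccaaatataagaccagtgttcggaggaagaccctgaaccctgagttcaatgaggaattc

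Of the cell surface and secreted proteins, 1 of 3 was at least 2-fold lower, against 5.52% of all genes. Cdhr1 (protocadherin 21), a cadherin of mitral and tufted cells and of photoreceptors, had signals of 151 in the odor-enriched and 493 in the control array. Its difference was -1.40 (2.64-fold lower; probe at chr14:37891387-37891446, mm9), and it stayed at least 2-fold lower under all 12 settings, with -1.07 for the series matrix values and -1.13 with normexp. Prom1, a partner of Cdhr1 in photoreceptors, lay on the other side at 2.42, with 3 probes from 1.37 to 3.43.

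Reln, the secreted glycoprotein reelin that mitral cells release, gave readings in both directions. Its bright probe, A_51_P365369 at chr5:21390477-21390536 (mm9), had signals of 129 in the odor-enriched and 299 in the control array and a difference of -0.90. Its dimmer probes had signals of 14.6 and 10.9 in the odor-enriched array, against 11.3 and 6.0 in the control array, and differences of 0.68 and 1.18. The mean of 0.32 thus joins readings that disagree, and it was -0.90 when the brightest probe stood for the gene and 0.02 with normexp. The remaining 3 Reln probes were not well above background on either array.

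Around reelin, 9 pathway genes had a median of -0.36. Of these, 1 was at least 2-fold lower (11.1%, against 5.52% of all genes) and 0 at least 2-fold higher (against 11.5%). The adaptor Dab1, which is phosphorylated when reelin binds, stood at -1.07 with 3 probes from -1.34 to -0.91, and the receptor Vldlr stood at -0.92. The other receptor, Lrp8, stood at 0.73, with 4 probes from -0.43 to 3.24. Reln was the next highest of the list.

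Ntng1, the membrane-anchored netrin G1 that binds Lrrc4c on partner cells, was within 2-fold. Its probe A_51_P213099 had signals of 377 in the odor-enriched and 570 in the control array, and A_51_P513000 had 71.0 in the odor-enriched and 115 in the control array. Their differences of -0.29 and -0.38 ran the same way, and the mean was -0.33. Lrrc4c stood at -0.71 and the related Lrrc4b at -1.12, the lowest of the 15 measured paralogs and partners, of which 1 passed 2-fold in each direction. That is 6.67% each way, against 5.52% of all genes lower and 11.5% higher. The highest were Prom1 and Cdhr3 (0.38), and Cdhr5 was well above background in the control array only.

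**Figure D2:**
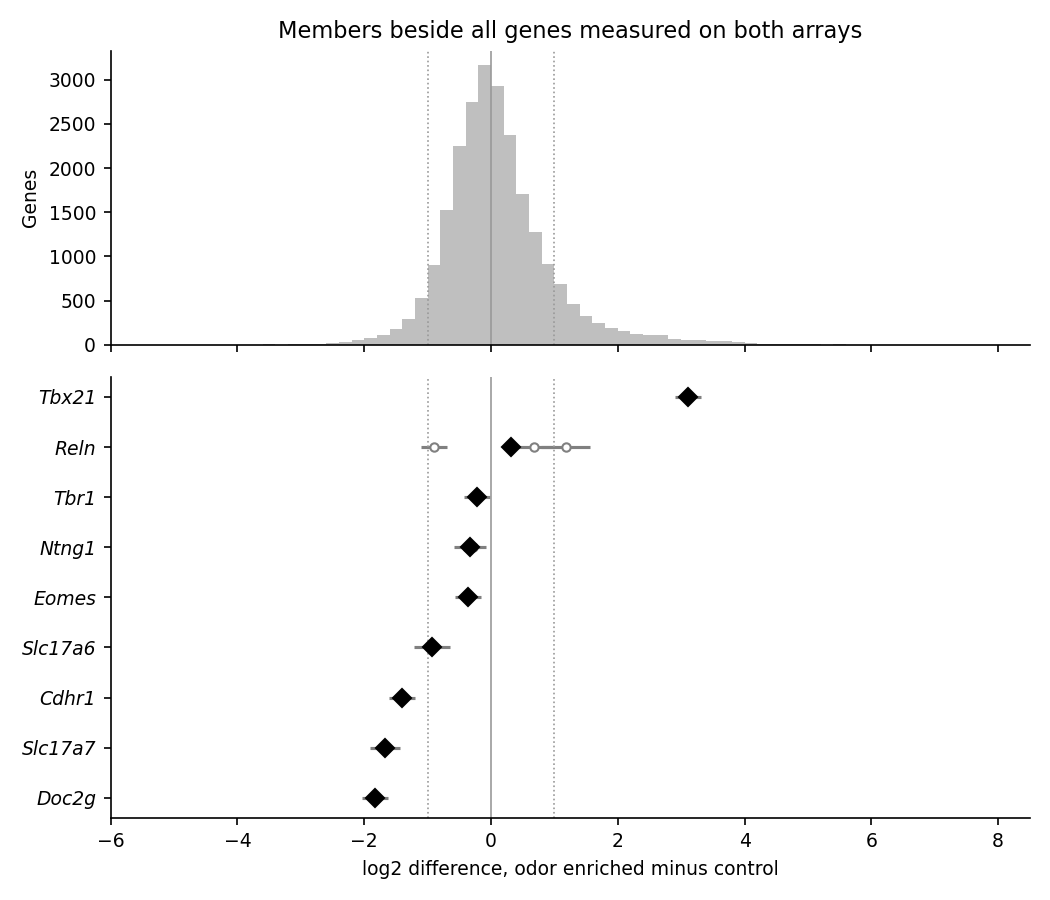
Upper panel, the number of genes at each log2 difference among 23872 genes; lower panel, the 9 measured members as diamonds, with open circles for single probes and bars for the signal error. Dotted lines mark 2-fold. Doc2g (-1.84), Slc17a7 (-1.67) and Cdhr1 (-1.40) lie left of the lower line, Tbx21 (3.11) lies right of the upper line, and the Reln probes lie on both sides of 0.

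The windows of 250 bases before the gene start, from RefSeq on GRCm38.p6, were at hand for all 10 genes, in 11 windows because Slc17a6 has 2. None of the 11 held the T-box letters AGGTGTGA on either strand, which 1.12% of all 32851 windows of that length held. The E-box letters CANNTG, which basic helix-loop-helix and zinc finger factors read, were found in the windows of 8 of the 10 genes and in 66.2% of all windows. The form CAGGTG, chosen after the sequences were seen and itself an E-box, was found on either strand for 5 of 10 genes (Tbx21, Tbr1, Slc17a7, Cdhr1 and Barhl2) and in 17.2% of all windows. It thus occurred before Tbx21, which was higher, and before Slc17a7 and Cdhr1, which were lower. A match is a description of the letters only. The windows of the 4 members past 2-fold are shown 5′ to 3′ on the gene's strand, with E-box letters in capitals (CACCTG is CAGGTG on the other strand). They are chr11:97115332-97115581 (minus strand) for Tbx21, chr19:4003135-4003384 (plus) for Doc2g, chr7:45163671-45163920 (plus) for Slc17a7 and chr14:37098348-37098597 (minus) for Cdhr1:
Tbx21: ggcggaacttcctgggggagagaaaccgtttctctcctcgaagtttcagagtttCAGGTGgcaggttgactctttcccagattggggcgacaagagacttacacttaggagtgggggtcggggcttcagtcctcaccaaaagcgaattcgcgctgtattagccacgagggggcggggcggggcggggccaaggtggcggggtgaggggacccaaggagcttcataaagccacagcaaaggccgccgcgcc
Doc2g: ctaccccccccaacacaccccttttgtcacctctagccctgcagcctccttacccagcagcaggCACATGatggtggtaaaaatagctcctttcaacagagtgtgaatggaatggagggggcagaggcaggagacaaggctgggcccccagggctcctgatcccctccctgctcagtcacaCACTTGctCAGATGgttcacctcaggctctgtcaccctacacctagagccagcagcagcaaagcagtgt
Slc17a7: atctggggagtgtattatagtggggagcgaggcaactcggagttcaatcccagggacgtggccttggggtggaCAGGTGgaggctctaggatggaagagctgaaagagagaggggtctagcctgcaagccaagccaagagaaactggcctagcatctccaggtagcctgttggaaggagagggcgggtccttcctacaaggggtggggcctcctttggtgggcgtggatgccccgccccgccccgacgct
Cdhr1: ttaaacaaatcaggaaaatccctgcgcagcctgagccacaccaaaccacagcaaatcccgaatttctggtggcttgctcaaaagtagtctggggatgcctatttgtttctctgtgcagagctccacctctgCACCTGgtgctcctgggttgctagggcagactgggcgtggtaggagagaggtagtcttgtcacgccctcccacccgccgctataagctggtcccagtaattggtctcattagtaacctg

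Further genes reported in mitral and tufted cells, from a list that shares 0 genes with the members, also lay mostly below 0. Of 19, 18 were measured on both arrays, 15 of them below 0, with a median of -0.42. At least 2-fold lower were 4 (22.2%, against 5.52% of all genes). At least 2-fold higher were 2 (11.1%, near the 11.5% of all genes). The lowest were the neuropeptide gene Cartpt, with levels of -0.30 in the odor-enriched and 1.85 in the control array and a difference of -2.15, and the transcription factor Ebf2 (-1.92). Lhx5, a LIM homeodomain factor, was well above background in the control array only. The highest were Nrp1 (1.87, with 6 probes from 1.0 to 2.87), a receptor that blood vessels also make, and Sema7a (1.28), a semaphorin also made by lymphocytes.

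Markers of the bulb's other neurons were set beside these. Over all genes, 5.52% were at least 2-fold lower and 11.5% at least 2-fold higher. The 15 granule cell markers centred on -0.16, with 0 past 2-fold in either direction, from Gad2 (0.14) and Dlx2 (0.09) to Dlx1 (-0.48) and Tshz1 (-0.83). For 10 dopaminergic periglomerular markers the median was -0.31. Gch1 (1.97) and Nr4a2 (1.12) were the 2 past 2-fold on the higher side, and 1 was past it on the lower side, the dopamine transporter Slc6a3 (-1.13), followed by the calcium-binding Calb2 (-0.88). The 15 general neuron markers had a median of -0.54, with 3 past 2-fold on the lower and 0 on the higher side. The lowest were the heavy neurofilament Nefh (-1.30) and the synapsin Syn1 (-1.03), and the highest were Syt1 (0.50) and Stmn2 (0.44). No test of the differences between lists was possible with 1 array each. The series matrix values, which shift all genes by 0.33, turned the medians positive for granule cells (0.17), dopaminergic cells (0.03), glutamate handling (0.02) and paralogs and partners (0.10). Normexp also turned that of dopaminergic cells (0.01).

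**Figure D3:**
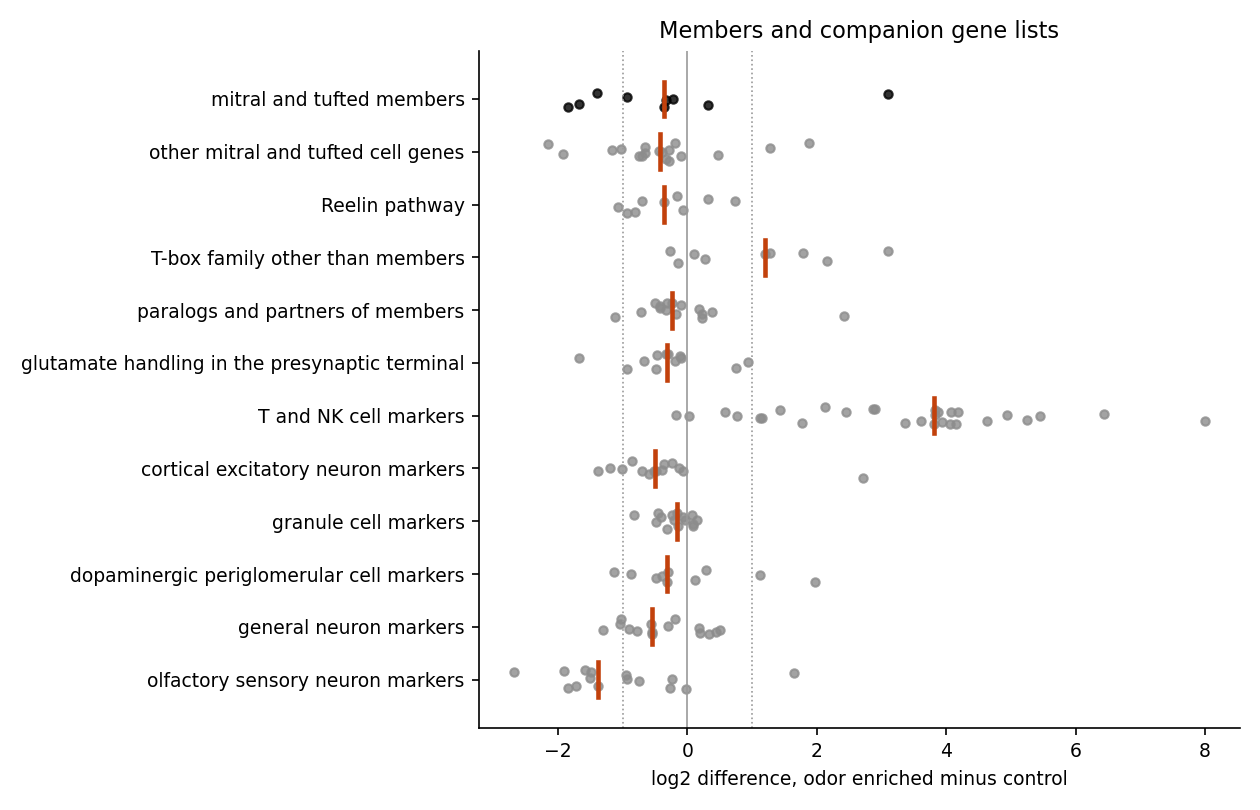
Log2 differences of the measured genes in each list, 1 point per gene, with orange lines at the medians and dotted lines at 2-fold. The members have a median of -0.36, T and NK cell markers 3.82, granule cell markers -0.16 and olfactory sensory neuron markers -1.37.

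Markers of other cells differed beside several of these values. Of 29 measured T and NK cell markers, 25 passed 2-fold on the higher side, against 11.5% of all genes, and 0 on the lower. Their median level was 0.56 in the odor-enriched and -2.72 in the control array, and their summed signal, in multiples of the array's 75th percentile, was 203 in the odor-enriched and 72.9 in the control array. Klrb1c alone gave 56.1 of it in the odor-enriched and 63.4 in the control array, and without it the sums were 147 in the odor-enriched and 9.47 in the control array. Of the 30 listed, Ncr1, an NK cell receptor, was well above background on neither array, and the others were on both. Ifng (8.00) and the inhibitory receptor Klrg1 (6.43) were highest and Cd4 (0.02) and Klrb1c (-0.18) lowest. The higher Tbx21 signal stood beside this list, and the part of lymphocytes in it was not tested. The usable Eomes probe, at -0.36, was on the other side of 0.

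Olfactory sensory neuron markers had 8 of 15 measured genes at least 2-fold lower, against 5.52% of all genes, 1 at least 2-fold higher and a median of -1.37. Omp, made by mature sensory neurons, was at -2.68 and the detoxifying enzyme Nqo1 at -1.90, while Ebf1 (1.64) and Gap43 (-0.02) were highest, and Cnga4 and Rtp1 were well above background in the control array only. Their summed signal was 130 multiples of the 75th percentile in the odor-enriched and 511 in the control array. Omp and the G protein subunit Gng13 together gave 108 of it in the odor-enriched and 474 in the control array, and without these 2 the sums were 22.9 in the odor-enriched and 37.1 in the control array. Sensory axons use Slc17a6, whose difference of -0.93 stood beside these values, and their part in it was not tested.

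Cortical excitatory neuron markers, cells that also use Slc17a7 and Tbr1, centred on -0.50 over 14 genes, with 3 past 2-fold on the lower and 1 on the higher side. These were 21.4% and 7.14% of the list, against 5.52% and 11.5% of all genes. The lowest were the neuronal factors Bhlhe22 (-1.38) and Neurod1 (-1.20), and Rorb stood at -0.07. Neurod6 was well above background on neither array. Their summed signal was 15.5 multiples of the 75th percentile in the odor-enriched and 20.6 in the control array. Camk2a weighed most in it, with the highest level of the list on both arrays (3.05 in the odor-enriched and 3.54 in the control array). The part of cortical tissue in the lower Slc17a7 was not tested.

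The members' differences were compared across the processing settings. Doc2g and Cdhr1 were at least 2-fold lower and Tbx21 at least 2-fold higher under all 12 settings, and Slc17a7 was at least 2-fold lower under 11 of 12, the exception being normexp. Each of these genes has 1 probe, so the filter and brightest-probe settings could not move it. Several scalings add 1 constant per array and shift all genes alike. These counts of settings are therefore not counts of independent checks. Slc17a6 passed 2-fold in the lower direction under 4 of the 12, with -1.11 on the array median, -1.14 with quantile scaling, -1.003 with cyclic loess and -2.69 with E1A. Eomes turned to 3.37 when outlier-flagged spots were kept. The series matrix values turned Tbr1 positive, and Reln turned negative with the brightest probe and with the E1A scaling.

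**Figure D4:**
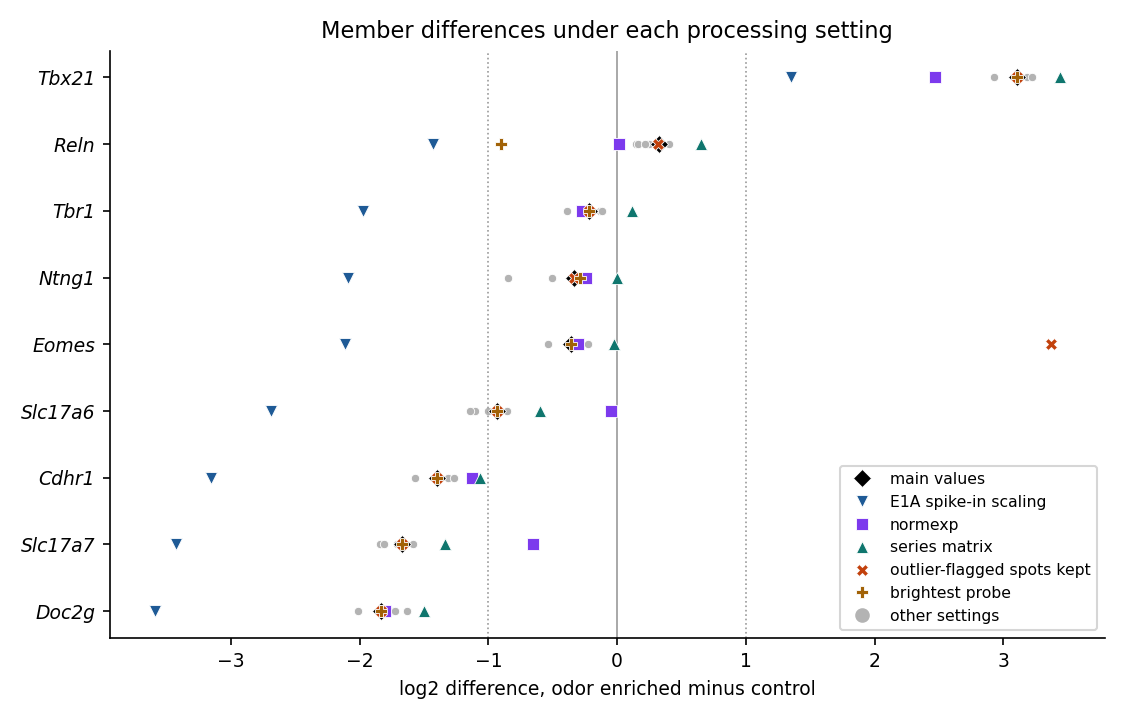
Log2 difference of each measured member under the main and the 12 alternative settings, with dotted lines at 2-fold. Doc2g and Cdhr1 stay left of the lower line and Tbx21 right of the upper line throughout, Slc17a7 crosses it with normexp (-0.66), and Eomes stands at 3.37 with outlier-flagged spots kept.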

How the data were processed

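Total RNA of the olfactory bulb of 1 odor-enriched and 1 control mouse was labelled with Cy3, per the labels' protocols. Per the file headers, spots were read with Agilent Feature Extraction 11.5.1.1 on a design with mm9 coordinates. Per the file headers, the processed signal is an intensity from which background and spatial trend were removed array by array, with no scaling across arrays. The series matrix deposited with them holds log2 values equal to each probe's log2 processed signal minus 1 constant per array (13.8 for odor enriched, 14.5 for control, medians -8.98 and -9.48). What that constant stands for is unknown, and so is the centring, so the matrix served as an alternative. Per the file headers, each spot also carries 0 or 1 flags for detection, outlier status and saturation. The deposited files hold no other samples.

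Outlier-flagged spots (183 in the odor-enriched, 122 in the control array) were left out, and 0 were saturated. The log2 signals of a probe's spots were averaged and the array's 75th percentile was subtracted (7.66 and 7.97 log2 units). Genes were given the mean of their probes well above background on both arrays. No test was run, since there is 1 array per group. The members, the 11 companion lists and the alternatives were chosen with earlier results of these data known. Named genes were all members, the 2 highest and 2 lowest of each list and list genes above background on 1 array only. Relatives of a member named beside it (Slc17a8, Doc2a, Doc2b, Rph3a, Tbx3, Tbx18), Gng13 and Camk2a were added after their values were seen. Some genes that this rule names are not reported here. No gene was named for a like pattern, since 2 arrays give 1 difference. The error of a difference joins the scanner software's signal errors of both arrays. Of the member probes, 14 carried a RefSeq accession, and all 14 were found under the same symbol in the reference table. Alternatives were 12 settings, with normexp (offset 50) and quantile and cyclic loess scaling from limma, and thresholds of 1.5-fold and 3-fold; patch spots were those whose neighbours in a block of 9 by 5 had a median difference past 1.2 log2 units. Leaving out Tbx21 and Eomes, and the list sums without their brightest genes, were added after seeing the data. Steps were tested on simulated data. Python 3.11.15, numpy 2.4.6, pandas 2.3.3, matplotlib 3.10.9, R 4.3.3 and limma 3.58.1 were used.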

Additional observations from a re-analysis of the deposited data

Results flagged for a closer look

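The Eomes probe that crosses a splice junction gave a difference of 7.10, with signals of 1239 in the odor-enriched and 11.2 in the control array, in a spot that the comparison leaves out because the scanner software flagged it as an outlier. Its pixel variation (43.8%) and the median difference of the surrounding spots (2.33) stand in the report, and their part in the value was not tested. With flagged spots kept, Eomes had 2 measured probes and a mean of 3.37.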

How the results depend on the processing

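No paired analysis was possible because each group holds 1 array, and no replicate could be left out. The number of members at least 2-fold lower was 3 of 9, against 5.52% of all genes. It was 3 or 4 under 10 of the 12 settings, where 2.44% to 8.8% of all genes were lower. With normexp it was 2, against 2.61% of all genes. With scaling on the 8 E1A spike-in probes it was 8 of 9, beside 83.5% of all genes, so that count does not set the members apart. There the median over all genes shifted by -1.76. The number at least 2-fold higher was 1, and 2 with outlier-flagged spots kept, each against 11.5% of all genes. Over the 12 settings that share ran from 1.58% to 25.3%. Without Tbx21 and Eomes the number higher was 0, and the median of the remaining 7 was -0.93. At 1.5-fold 4 members were lower (16.3% of all genes) and at 3-fold 2 (1.38%). At each, 1 was higher (21.2% and 5.39% of all genes). The median of -0.36 was -2.12 with E1A scaling, -0.027 with the series matrix values, -0.68 with probes above background on either array and -0.90 with the brightest probe. Its distance to the median of all genes was -0.36 with the main, median, E1A and matrix scalings alike, because these add 1 constant per array. Median centring moved the median of all genes by -0.17, the matrix values by 0.33 and no filter by 0.21. The share of 2-fold different genes that were higher was 67.6%, but 50.9% with median centring, 88.5% with the matrix values, 1.85% with E1A, 57.6% with probes above background on either array and 80.3% with no filter. The cause of these shifts was not tested. Signal over background limits Slc17a7, Slc17a6, Barhl2 and the dim Reln probes: the median local background was 22 in the odor-enriched and 17 in the control array. T and NK cell markers kept a positive median, from 2.06 to 4.15, under all 12 settings.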

Other observations

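Of the 9 member probes not used, 5 were well above background on neither array, 3 on the control array only and 1 was outlier-flagged. The 3 were the Barhl2 probe and 2 Ntng1 probes, A_52_P305658, with signals of 1.74 in the odor-enriched and 6.66 in the control array, and A_55_P2063462, with 3.40 in the odor-enriched and 9.08 in the control array. With probes above background on either array counted, the Ntng1 difference was -0.85 in place of -0.33. The odor-enriched array had the higher lowest level counted as well above background, -4.66 against -5.69 in the control array. Calls on the control array only were the more common kind over all genes as well, with 2701 genes against 449 on the odor-enriched array only.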
